A study of Mus musculus with 6 samples.

Results

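The 7 genes of the Lin28, Hmga and Igf2bp families were followed in RNA from newborn mouse epidermis of Eed knockout and control skin. They were taken by gene symbol (Lin28a, Lin28b, Hmga1, Hmga2, Igf2bp1, Igf2bp2 and Igf2bp3) from the 24453 symbols counted in each library. The families themselves were chosen by their levels in this same comparison of Eed cKO with control, so the values of that comparison describe these genes and are no independent evidence about them. EED is part of the Polycomb repressive complex PRC2, the enzyme complex that places methyl marks on lysine 27 of histone H3 and keeps developmental genes silent. The samples were 3 libraries labelled Eed-/- and named Eed cKO (conditional knockout), and 3 control libraries, all at postnatal day 0. The cells came from back skin and were sorted for EpCAM, Sca1 and high α6-integrin, which enriches progenitors of the interfollicular epidermis. The sources used here do not state the Cre driver, the deleted exons, the strain or the exact genotype of the controls. The labels do not say whether the libraries come from separate animals, so p-values measure only the spread between these libraries, which may be technical.

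LIN28A and LIN28B are RNA-binding proteins that block the maturation of the let-7 microRNAs, and let-7 in turn binds the messages of Lin28b, Hmga2 and the Igf2bp genes. HMGA1 and HMGA2 are small proteins that bind the minor groove of AT-rich DNA, and IGF2BP1, IGF2BP2 and IGF2BP3 bind messenger RNAs and affect their stability, transport and translation. Most of these genes are high in embryonic tissue, low in adult tissue and high again in many tumours, hence the name oncofetal.

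The 9 mature let-7 family members below, from RefSeq on GRCm38.p6, are shown because all of them carry the same seed (bases 2 to 8, in capitals), which pairs with the messages of their targets.
let-7a-5p: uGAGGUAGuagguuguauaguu
let-7b-5p: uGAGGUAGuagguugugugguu
let-7c-5p: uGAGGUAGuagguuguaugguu
let-7d-5p: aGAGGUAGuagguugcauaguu
let-7e-5p: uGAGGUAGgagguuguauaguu
let-7f-5p: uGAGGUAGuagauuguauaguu
let-7g-5p: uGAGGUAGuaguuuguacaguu
let-7i-5p: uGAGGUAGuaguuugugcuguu
miR-98-5p: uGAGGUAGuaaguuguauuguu

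The reverse complement of that seed is CTACCTC. It was searched on the transcript strand in the longest annotated 3' UTR of each gene (GENCODE M21, GRCm38), and 9.02% of 21045 protein-coding genes held at least 1 match. Each of the 7 genes held a match: 4 each in Lin28b, Hmga2 and Igf2bp1, 2 in Lin28a, and 1 each in Hmga1, Igf2bp2 and Igf2bp3. Longer UTRs hold more matches, so each was set against genes whose 3' UTR had a length within 20% of its own. Each set includes the gene itself. In that set 0.236% of 1271 genes held at least as many as Lin28b, 0.134% of 2247 as many as Hmga2 and 0.355% of 564 as many as Igf2bp1. For Lin28a, with 2 matches, the share was 2.10%. For Hmga1, Igf2bp2 and Igf2bp3, with a single match, the shares were 8.07%, 12.04% and 13.3%. A match is a description of the sequence and was not tested as a binding site. The matches that are also followed by an A, counted here as matches of 8 bases, are printed for the 5 genes with enough counts to test. The seed match is in capitals and the coordinates are on GRCm38.
Lin28b, chr10:45381015-45381044, minus strand: acccgggcgggaagtCTACCTCatgcaagc
Hmga2, chr10:120364217-120364246, minus strand: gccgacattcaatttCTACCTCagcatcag
Igf2bp1, chr11:95961771-95961800, minus strand: gctgtgcgaagtaaaCTACCTCaaggtgtg
Igf2bp1, chr11:95959350-95959379, minus strand: cagcagtgctattaaCTACCTCagccccag
Igf2bp1, chr11:95958756-95958785, minus strand: gtataaatggatgaaCTACCTCagtcctca
Igf2bp2, chr16:22059466-22059495, minus strand: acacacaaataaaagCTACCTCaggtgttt
Igf2bp3, chr6:49086780-49086809, minus strand: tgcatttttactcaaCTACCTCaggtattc

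**Figure D1:**
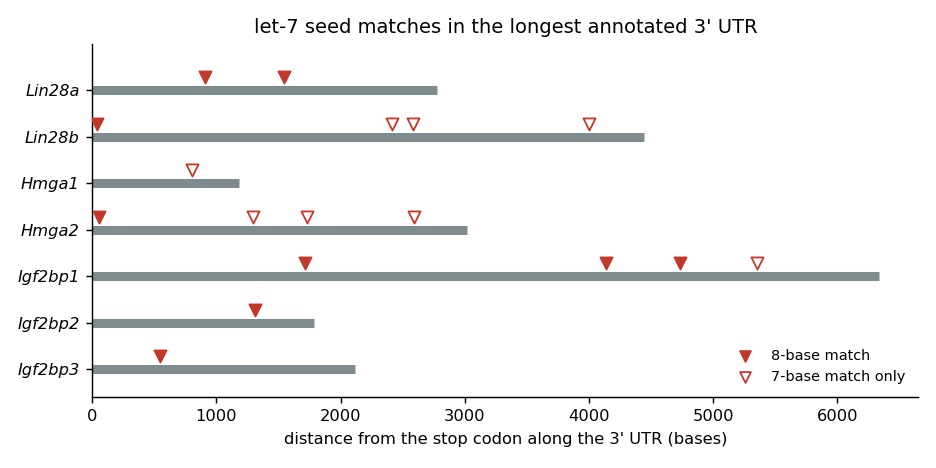
Matches to the let-7 seed along the longest annotated 3' UTR of each gene, with the distance from the stop codon in bases on the x axis and the genes on the y axis. Grey bars are the UTRs, filled triangles matches of 8 bases and open triangles matches of 7 bases; Lin28b, Hmga2 and Igf2bp1 each hold 4 triangles and Igf2bp2 and Igf2bp3 1 each.

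In Eed cKO epidermis 3 of the genes were higher than in control. Lin28b was 13.1-fold higher by the ratio of mean levels, from a very low control level, while Hmga2 (1.92-fold) and Igf2bp1 (1.91-fold) were about doubled in their means. Igf2bp2 and Igf2bp3 did not pass the test, and Lin28a and Hmga1 had too few counts to be tested. Of the 5 genes tested, 3 were thus called higher and 0 lower with edgeR's quasi-likelihood test at a Benjamini-Hochberg adjusted p under 0.05. Over all 14700 genes tested, 4.21% were called, 3.39% higher and 0.816% lower. Lin28b, with 4, 9 and 4 counts in control, passed the filter on low counts only through its Eed cKO libraries. Its place among the 5 thus rests on the group where it was high, and the 3 of 5 is not independent of that. None of the 5 had an unadjusted p under 0.05 in the lower direction, and DESeq2 and limma-voom also called 3 higher and 0 lower. Over all 14700 genes tested, 2185 had an unadjusted edgeR p under 0.05 in either direction, the background of such counts below.

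Levels are given as CPM, counts per 1000000 of the library total after correction by the trimmed mean of M-values (TMM). A positive log2 fold change means a higher level in Eed cKO, and its standard error is written SE. Library totals ran from 20998149 to 27447679 counts in Eed cKO and from 25481306 to 29998531 in control. Eed itself was at 33.3 ± 3.90 CPM in Eed cKO and 46.4 ± 6.11 CPM in control (SD, n = 3 each). Every Eed cKO library was below every control library, as in 9.22% of all genes tested. This difference was not called (edgeR adjusted p 0.252, unadjusted p 0.0279). The epidermal markers were abundant in both groups, with summed levels of 30570 to 40300 CPM in Eed cKO and 35800 to 42450 CPM in control, most of it Krt5. Reads on Rn45s, the ribosomal RNA precursor, made up 6.78% to 7.26% of counts in Eed cKO and 2.18% to 5.24% in control, and with Rn45s left out the same 3 genes of the families were called. In such bulk samples, more cells that express a gene and more RNA per cell cannot be told apart.

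Lin28b (chromosome 10, 45376620 to 45486395, minus strand, GRCm38) is the paralog that is also found in differentiating and tumour cells. It had 87, 49 and 54 counts in Eed cKO libraries 1, 2 and 3, against 4, 9 and 4 counts in control libraries 1, 2 and 3. As levels these are 3.17, 1.97 and 2.61 CPM in Eed cKO and 0.1496, 0.288 and 0.156 CPM in control. All Eed cKO libraries were above all control libraries, the lowest of them at a level several times the highest control. The means were 2.58 ± 0.602 CPM in Eed cKO and 0.198 ± 0.0778 CPM in control (SD, n = 3 each), a fitted log2 difference of 3.66 (SE 0.80) at an edgeR adjusted p of 0.0176. The control level rests on 17 counts in all. The call was lost without Eed cKO 1, Eed cKO 3 or control 3 (edgeR adjusted p up to 0.0736), and over all 6 such fits the log2 fold change ran from 3.49 to 4.05.

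Lin28a (chromosome 4, 134003330 to 134018841, minus strand), the paralog of pluripotent cells, had 4 counts in Eed cKO 2 and 8 in control 2. The other 4 libraries had no count, which allows up to 0.145 CPM in Eed cKO and up to 0.117 CPM in control. It was therefore at or close above that limit in both groups, and no difference was detectable at this depth. This floor of 3 counts covers counting error only, since amplified reads are not independent molecules.

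Hmga2 (chromosome 10, 120361275 to 120476469, minus strand), a chromatin architecture gene of growing embryonic tissue, was at 51.0, 68.4 and 52.9 CPM in Eed cKO libraries 1, 2 and 3, against 23.9, 39.2 and 26.4 CPM in control libraries 1, 2 and 3. The groups did not overlap, and the library numbered 2 was the highest in each group. For comparison, the groups lay apart with Eed cKO higher in 11.0% of all genes tested and with Eed cKO lower in 9.22%. Of the 5 tested genes of the families 3 were apart, all with Eed cKO higher. Lin28b is among them and was tested only through its Eed cKO libraries. The means were 57.4 ± 9.57 CPM in Eed cKO and 29.8 ± 8.18 CPM in control (SD, n = 3 each), which gave a log2 fold change of 0.94 (SE 0.23) at an edgeR adjusted p of 0.0291. The call was lost without Eed cKO 2, Eed cKO 3, control 1 or control 3 (edgeR adjusted p up to 0.151). A pseudogene copy counted in a row of its own, Hmga2-ps1, was at 5.14, 1.81 and 0.436 CPM in Eed cKO and at 1.53, 2.08 and 1.33 CPM in control. That row did not separate the groups (edgeR adjusted p 0.825), and how reads were split between the copies is not given, so the Hmga2 level is uncertain to that extent. Hmga2 also shares 140 of its 6772 exonic bases with an antisense transcript, and the strand setting of the counting is not given.

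Hmga1 (chromosome 17, 27556497 to 27563674, plus strand) had 14, 8 and 0 counts in Eed cKO libraries 1, 2 and 3, and 0 in every control library. How multiply mapped reads were counted is not given, and their part in the low values was not tested. No level of Hmga1 is drawn from this row.

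**Figure D2:**
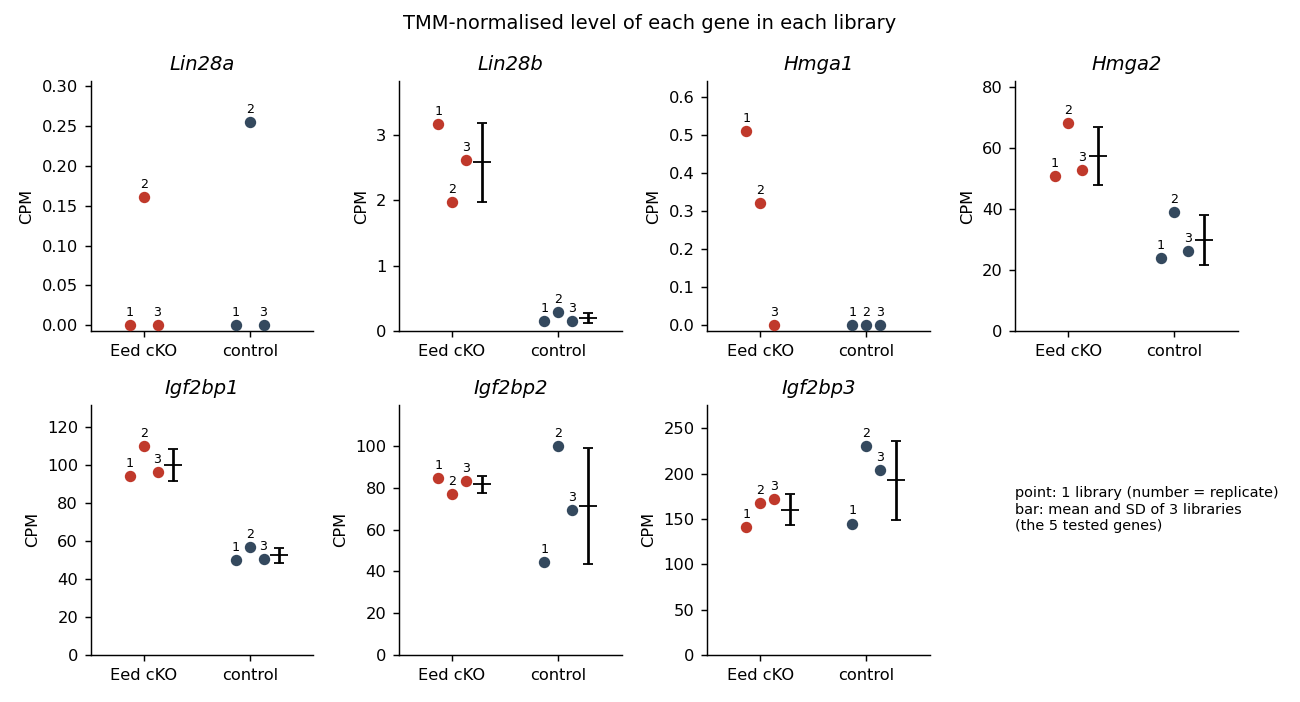
TMM-normalised CPM (y axis, linear, a scale for each gene) of the 7 genes in Eed cKO and control libraries; each point is a library with its replicate number, and bars give the mean and SD of 3 libraries for the 5 tested genes. Eed cKO points lie above all control points for Lin28b, Hmga2 and Igf2bp1 and overlap with them for Igf2bp2 and Igf2bp3.

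Igf2bp1 (chromosome 11, 95957163 to 96005940, minus strand) encodes an RNA-binding protein that stabilises messages such as Myc and transports Actb mRNA. It was at 93.9, 109.6 and 96.1 CPM in Eed cKO libraries 1, 2 and 3, and at 49.9, 56.8 and 50.3 CPM in control libraries 1, 2 and 3. Every Eed cKO library was far above every control library, and the spread within each group was small. The means were 99.9 ± 8.48 CPM in Eed cKO and 52.3 ± 3.88 CPM in control (SD, n = 3 each), which on the log2 scale is a fitted rise of 0.93 (SE 0.17) with an edgeR adjusted p of 0.00532. Among the called genes of the families it alone kept its call in all 6 fits that leave out 1 library, with a log2 fold change between 0.87 and 1.01 and an edgeR adjusted p of at most 0.0393. Of its 9682 exonic bases 135 are shared with other annotated genes.

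Igf2bp2 (chromosome 16, 22059009 to 22163299, minus strand), the paralog that stays on in many adult tissues, was at 84.9, 77.3 and 83.3 CPM in Eed cKO. Control libraries 1, 2 and 3 were at 44.7, 99.96 and 69.6 CPM, so control 2 lay above and controls 1 and 3 below all Eed cKO libraries. Its means were 81.8 ± 4.04 CPM in Eed cKO and 71.4 ± 27.7 CPM in control (SD, n = 3 each), and the log2 difference of 0.20 (SE 0.24) did not pass (edgeR adjusted p 0.805). The sign turned without control 1, where the value was -0.054.

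Igf2bp3 (chromosome 6, 49085223 to 49214957, minus strand), an oncofetal paralog known as a tumour marker, was at 141, 168 and 172 CPM in Eed cKO and at 145, 230.0 and 204 CPM in control libraries 1, 2 and 3. Controls 2 and 3 were above all Eed cKO libraries, while control 1 lay among them. The means were 160.3 ± 16.8 CPM in Eed cKO and 193 ± 43.5 CPM in control (SD, n = 3 each). That difference, -0.27 on the log2 scale (SE 0.19), did not pass (edgeR adjusted p 0.590). Of the 8159 exonic bases of Igf2bp3, 1529 are shared with Malsu1 on the opposite strand. Malsu1 was at 19.2 ± 4.80 CPM in Eed cKO and 18.0 ± 6.24 CPM in control (SD, n = 3 each), and reads from the shared stretch cannot be assigned without strand.

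**Figure D3:**
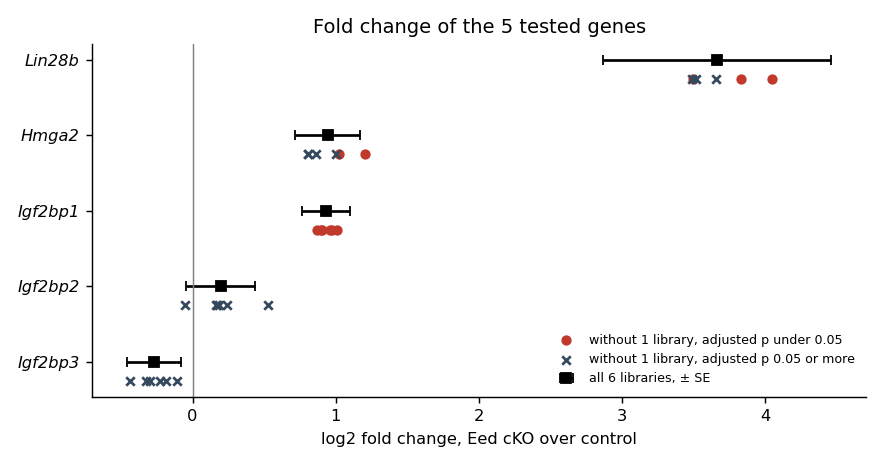
Log2 fold change of Eed cKO over control (x axis) for the 5 tested genes. Squares with bars are the value from all 6 libraries with its SE, and small marks below are the 6 fits that leave out 1 library, as circles where the edgeR adjusted p was under 0.05 and crosses where it was not. All 6 marks of Igf2bp1 are circles, against 3 for Lin28b and 2 for Hmga2.

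Levels of different genes were compared per kilobase (kb) of exons. In Eed cKO the order was Igf2bp3 (19.6 ± 2.06 CPM per kb), Igf2bp2 (11.1 ± 0.546), Igf2bp1 (10.3 ± 0.876), Hmga2 (8.48 ± 1.41) and Lin28b (0.285 ± 0.0664 CPM per kb; SD, n = 3). The libraries of Igf2bp2 and Igf2bp1 overlapped in Eed cKO, as did those of Igf2bp1 and Hmga2. Control had the same order, with Igf2bp3 at 23.65 ± 5.34, Igf2bp2 at 9.65 ± 3.74, Igf2bp1 at 5.41 ± 0.401, Hmga2 at 4.41 ± 1.21 and Lin28b at 0.0218 ± 0.00859 CPM per kb (SD, n = 3). There the libraries of Igf2bp1 and Hmga2 overlapped, and those of the other neighbours did not. Lin28b stayed a weak transcript: its mean level per kb exceeded that of 7.3% of 14409 tested genes in Eed cKO and 0.7% in control. Igf2bp1 exceeded 71.2% of these genes in Eed cKO and 53.5% in control, and Igf2bp3 exceeded 85.2% in Eed cKO and 87.9% in control. The order depends on the length used: per kb of the longest transcript, an alternative chosen after seeing the data, Hmga2 was above Igf2bp1 in both groups. There Hmga2 was at 15.1 CPM per kb in Eed cKO and 7.83 CPM per kb in control, and Igf2bp1 at 11.9 CPM per kb in Eed cKO and 6.25 CPM per kb in control.

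Within the Igf2bp family the share of Igf2bp1 was higher and that of Igf2bp3 lower in every Eed cKO library than in any control library, whereas the summed levels overlapped. Igf2bp1 made up 25.2%, 26.8% and 23.5% of the summed level per kb in Eed cKO libraries 1, 2 and 3, against 17.8%, 12.3% and 13.1% in control libraries 1, 2 and 3. Igf2bp3 made up 44.9%, 48.6% and 49.9% in Eed cKO, against 61.35%, 59.3% and 63.1% in control. The shares of Igf2bp2 overlapped between the groups (27.0 ± 2.61% in Eed cKO and 24.3 ± 3.80% in control; SD, n = 3 each). The summed level was 41.0 ± 2.21 CPM per kb in Eed cKO and 38.7 ± 9.33 CPM per kb in control (SD, n = 3 each). The shares are given as a description, with no test, since they come from the levels by which the families were chosen. They rest on the gene lengths: with the longest transcript as length, Igf2bp1 made up 18.3% in Eed cKO and 9.92% in control.

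**Figure D4:**
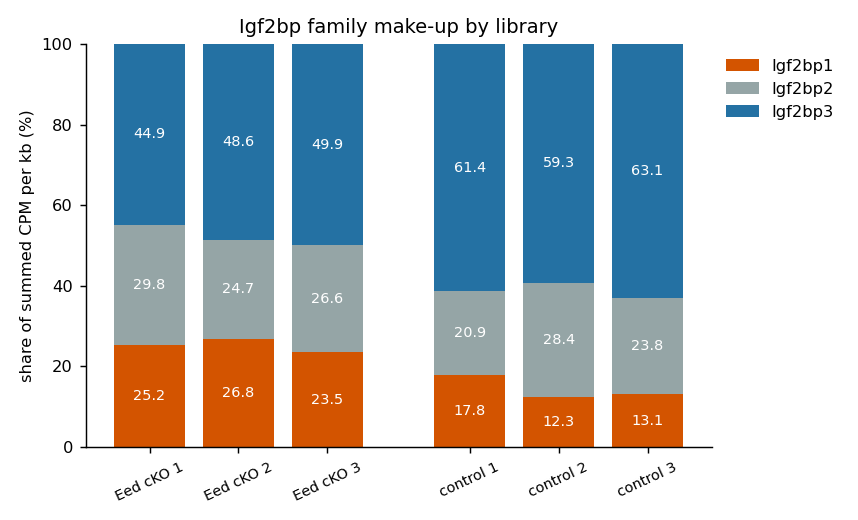
Share of the summed Igf2bp level (CPM per kb of exons, y axis in percent) taken by Igf2bp1, Igf2bp2 and Igf2bp3 in each library, with Eed cKO libraries on the left and control libraries on the right. Igf2bp1 takes 23.5% or more in each Eed cKO library and 17.8% or less in each control library.

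The promoters of the genes that rose were examined because PRC2 is known to act at CpG-rich promoters. The sequence table (RefSeq, GRCm38.p6) holds 250 bases before to 50 after the start, for 6 of the 7 genes, and has no entry for Igf2bp1. Counting the dinucleotide CG (it reads the same on both strands), the median of 32851 promoters was 7, and 94.6% held at least 1. The Lin28b promoter held 8 and that of Hmga2 12, as many as or more than which were found in 48.6% and 39.6% of all promoters. The Lin28b window lies inside the gene, and CG at the annotated end of the gene where its span begins on the minus strand (45486395) was not counted. Of the genes that were not called, Igf2bp2 had 47 CG and Igf2bp3 25, reached by 1.4% and 18.4% of promoters. The promoters of the 2 genes that rose and are in the table are printed 5′ to 3′ with each CG in capitals; that of Lin28b lies at the start of its protein-coding transcript Lin28b-201, inside the gene's annotated span.
Lin28b, chr10:45470152-45470451, minus strand: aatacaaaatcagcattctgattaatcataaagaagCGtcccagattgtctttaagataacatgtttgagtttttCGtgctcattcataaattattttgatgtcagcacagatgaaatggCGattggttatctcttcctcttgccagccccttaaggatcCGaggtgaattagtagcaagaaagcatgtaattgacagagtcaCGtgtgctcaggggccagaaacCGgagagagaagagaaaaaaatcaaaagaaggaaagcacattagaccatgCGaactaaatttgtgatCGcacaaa
Hmga2, chr10:120476420-120476719, minus strand: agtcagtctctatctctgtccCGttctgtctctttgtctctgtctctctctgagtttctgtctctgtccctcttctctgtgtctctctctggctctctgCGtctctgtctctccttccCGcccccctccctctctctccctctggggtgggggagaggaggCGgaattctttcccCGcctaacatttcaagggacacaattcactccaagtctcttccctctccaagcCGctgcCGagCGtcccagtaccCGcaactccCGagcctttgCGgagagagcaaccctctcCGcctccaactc

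The genes around the LIN28 and let-7 pathway were then counted by list, of which Trim71 and Igf2 are in more than 1. Of 26 genes of the microRNA pathway and its regulators, among them those that make, tail, degrade or load microRNAs, all were tested. In edgeR 0 of them were called. At an unadjusted p under 0.05, 2 were higher and 1 lower, against 2185 of 14700 over all genes in either direction. DESeq2 called Trim25 higher and Ago4 lower, and limma-voom called none. Trim25, a cofactor of LIN28A in let-7 tailing, was at 156 ± 14.5 CPM in Eed cKO and 106 ± 18.4 CPM in control (SD, n = 3 each; edgeR adjusted p 0.0987). Ago4, an Argonaute that binds microRNAs, was at 52.1 ± 2.59 CPM in Eed cKO and 76.0 ± 0.702 CPM in control (SD, n = 3 each; edgeR adjusted p 0.0942). Dicer1, which cuts microRNA precursors, was at 269.7 ± 9.29 CPM in Eed cKO and 289.9 ± 54.2 CPM in control (SD, n = 3 each; edgeR adjusted p 0.868). The median log2 fold change of the list was -0.06, against -0.01 over all genes tested.

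Of 25 growth and cell cycle genes outside the families that are widely described as let-7 targets, 24 were tested. Among these 3 were called higher (12.5%, against 3.39% of all genes) and 0 lower. This and the other lists were chosen with earlier results of these data known, so such shares are no independent evidence. At an unadjusted p under 0.05, 7 were higher, the 3 called among them, and 1 was lower, against 2185 of 14700 over all genes in either direction. Neither DESeq2 nor limma-voom called any lower. The median log2 fold change of the list was -0.03, with 11 genes above 0 and 13 below. Ccnd1, encoding the G1 cyclin D1, was at 480.4, 473 and 402 CPM in Eed cKO, against 194, 157 and 247 CPM in control (log2 fold change 1.18, edgeR adjusted p 0.00180). Arid3b, encoding a DNA-binding factor of the ARID family, was at 13.04, 7.83 and 12.2 CPM in Eed cKO, against 1.23, 0.831 and 3.32 CPM in control. Both genes had every Eed cKO library above every control library, and Arid3b had means of 11.02 ± 2.80 CPM in Eed cKO and 1.79 ± 1.34 CPM in control (SD, n = 3 each; log2 fold change 2.62, edgeR adjusted p 0.00805). Arid3b kept its call in all 6 fits that leave out 1 library, with a log2 fold change between 2.28 and 3.41. Ccnd2, encoding cyclin D2, was at 1758, 2106 and 1926 CPM in Eed cKO, against 1278, 961 and 1136 CPM in control. Its log2 fold change was 0.78 (edgeR adjusted p 0.0137), a call lost without Eed cKO 2, Eed cKO 3, control 2 or control 3 (edgeR adjusted p up to 0.0691).

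The growth factor gene Igf2, whose message IGF2BP proteins bind, was at 6636, 4563 and 5881 CPM in Eed cKO, against 3745, 3957 and 3998 CPM in control. Although the libraries did not overlap, Igf2 was not called (log2 fold change 0.55, edgeR adjusted p 0.1002), except by DESeq2 (adjusted p 0.0236) and without Eed cKO 2 (edgeR adjusted p 0.0400). Myc was at 360.3 ± 54.5 CPM in Eed cKO and 236 ± 50.03 CPM in control (SD, n = 3 each; edgeR adjusted p 0.0917, but 0.0290 without control 1 and 0.0247 in DESeq2). Mycn was at 12.1 ± 3.79 CPM in Eed cKO and 6.19 ± 1.71 CPM in control (SD, n = 3 each; edgeR adjusted p 0.186). Trim71, an embryonic RNA-binding ubiquitin ligase and a classic let-7 target, was at 0.364, 2.01 and 3.19 CPM in Eed cKO and at 0.561, 0.447 and 0.234 CPM in control. Its groups overlapped through Eed cKO 1 (edgeR adjusted p 0.279).

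**Figure D5:**
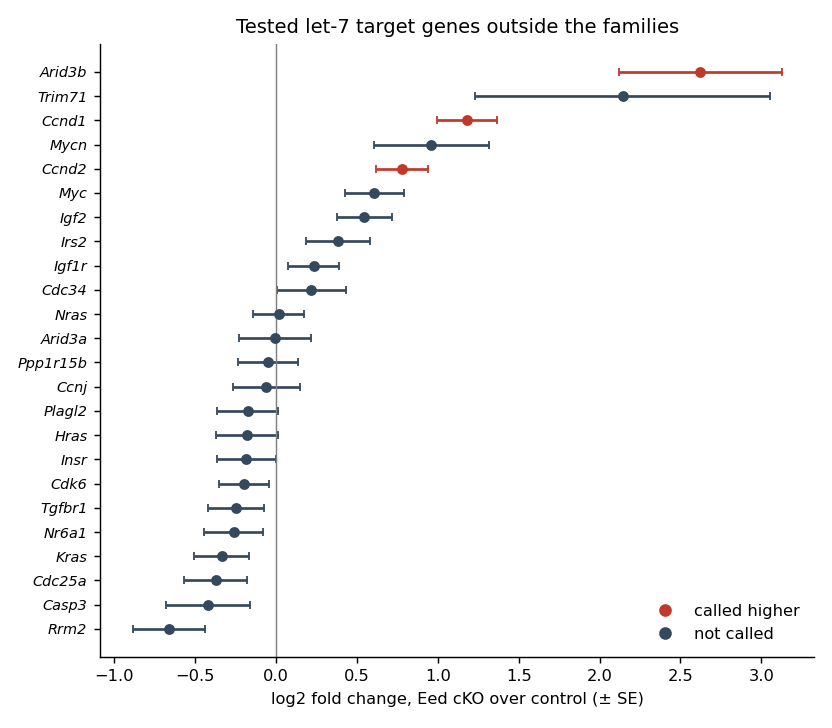
Log2 fold change of Eed cKO over control with its SE (x axis) for the 24 tested let-7 target genes outside the families (y axis). Arid3b (2.62), Ccnd1 (1.18) and Ccnd2 (0.78) were called higher, and the other genes were not called.

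Among 16 other oncofetal genes 13 were tested, 1 was called higher (7.69%, against 3.39% of all genes) and 0 lower. DESeq2 called 3 higher (Bex1, Igf2 and Ror1) and limma-voom 1. At an unadjusted p under 0.05, 4 of the 13 were higher and 0 lower, and DESeq2 and limma-voom also called 0 lower. The gene that rose was Bex1, a brain-expressed X-linked gene, at 49.8, 50.5 and 38.1 CPM in Eed cKO, against 7.37, 17.1 and 16.2 CPM in control (log2 fold change 1.76, edgeR adjusted p 0.00270). Bex1 was called in all 6 fits that leave out 1 library. Ror1, an oncofetal receptor, was at 139.9 ± 23.0 CPM in Eed cKO and 82.6 ± 24.7 CPM in control (SD, n = 3 each) without passing (edgeR adjusted p 0.0795, but 0.0364 without control 1 and 0.0182 in DESeq2). H19, a noncoding host of a microRNA next to Igf2, was at 9671 ± 1963 CPM in Eed cKO and 11050 ± 3633 CPM in control (SD, n = 3 each; edgeR adjusted p 0.803). The median log2 fold change of the list was 0.29. Afp, encoding alpha-fetoprotein, had no count in any library.

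Of 12 other high mobility group genes 11 were tested and edgeR called 0, and 8 had a negative log2 fold change (median -0.31). In the lower direction 3 had an unadjusted p under 0.05 and in the higher 0, and DESeq2 called Hmgn5 lower while limma-voom called none. Hmgn5, which binds nucleosomes, was at 52.2 ± 10.7 CPM in Eed cKO and 85.1 ± 15.6 CPM in control (SD, n = 3 each; edgeR adjusted p 0.0780). Hmgb2 (edgeR adjusted p 0.138) and Hmgb3 (0.236), which bend DNA, also had negative log2 fold changes, of -0.63 and -0.49. Of 27 genes for IGF2BP partners in messenger ribonucleoprotein particles and for the writing, erasing and reading of N6-methyladenosine, all were tested and edgeR called 0. A single gene had an unadjusted p under 0.05 in the higher direction and 0 in the lower, and neither DESeq2 nor limma-voom called any. Over this list the median was -0.04 on the log2 scale, with Elavl2 (1.99), Pabpc1 (0.32) and Stau1 (-0.29) having its smallest p-values (edgeR adjusted p 0.246, 0.375 and 0.434).

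For each called gene of the families the 3 genes closest in pattern were found by the root mean square difference (RMSD) of log2 CPM over the 6 libraries, each gene centred on its own mean. Closest to Lin28b were Zdbf2 (RMSD 0.245), Elovl2 (0.299) and Nap1l2 (0.305), and Zdbf2 was at 65.5 ± 1.47 CPM in Eed cKO and 6.14 ± 0.756 CPM in control (SD, n = 3 each). Hmga2 was closest to Pros1 (RMSD 0.112), Frat2 (0.126) and Zc3h12c (0.137). In each of these, as in Hmga2, library 2 was the highest of each group, which the choice by likeness of pattern favours. Of these 3 only Pros1 was called (edgeR adjusted p 0.0144, against 0.144 for Frat2 and 0.0745 for Zc3h12c). The genes closest to Igf2bp1 were Fmnl2 (RMSD 0.0695), Tnc (0.104) and Igf2r (0.109). Igf2r, the receptor that clears IGF2, was at 209, 276 and 215 CPM in Eed cKO and at 122, 142 and 139.9 CPM in control.

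Markers of other cells moved with genotype beside these genes. For comparison, 3.39% of all genes tested were called higher and 0.816% lower. Of 8 Merkel cell markers 6 were tested and 4 rose (Isl1, Sox2, Ncam1 and Rab3b), and their summed level was 50.1 to 82.5 CPM in Eed cKO and 8.63 to 26.2 CPM in control. Most of that sum was Ncam1, an adhesion gene that is not specific to Merkel cells, at 40.5 to 62.8 CPM in Eed cKO and 7.67 to 23.5 CPM in control. Isl1, Sox2 and Atoh1 had no count in any control library, while Krt20 had 2 counts over the control group. Isl1 and Sox2 thus passed the filter on low counts only through Eed cKO and could only be called higher. The 4 of 6 is in part set by that filter. Of 8 immune markers 6 were tested and 2 fell (Cx3cr1 and F13a1), with a summed level of 64.8 to 341 CPM in Eed cKO and 120.2 to 465 CPM in control. All 8 hair follicle markers were tested and 1 fell (Krt71), with sums of 209.9 to 260.3 CPM in Eed cKO and 117 to 205 CPM in control. Most of that sum was Sox9, at 142 to 184 CPM in Eed cKO and 66.1 to 124.5 CPM in control. Among the follicle markers DESeq2 also called Krt27 lower and Lhx2 higher, while limma-voom called Lhx2 higher and 0 of them lower. Limma-voom called Cx3cr1 but not F13a1 among the immune markers, and Isl1, Sox2 and Ncam1 but not Rab3b among the Merkel cell markers. Of the tested markers of fibroblasts (7), endothelium (5), melanocytes (5) and muscle (1), edgeR, DESeq2 and limma-voom called 0; at an unadjusted p under 0.05 a fibroblast marker was higher and a melanocyte marker lower. Their sums overlapped between the groups: fibroblast markers were at 570.5 to 653 CPM in Eed cKO and 389 to 586 CPM in control, endothelial markers at 5.94 to 33.6 CPM in Eed cKO and 4.99 to 34.8 CPM in control, melanocyte markers at 12.3 to 21.0 CPM in Eed cKO and 8.87 to 27.2 CPM in control, and muscle markers at 0.292 to 3.10 CPM in Eed cKO and 0.859 to 1.53 CPM in control. Among 9 epidermal and sort markers Epcam was called higher (139.7 ± 17.4 CPM in Eed cKO and 82.1 ± 20.4 CPM in control; SD, n = 3 each) and the other 8 were not called. At an unadjusted p under 0.05 Trp63 and Col17a1 were lower, and neither DESeq2 nor limma-voom called a marker of this list lower. Trp63 was at 1577 ± 165 CPM in Eed cKO and 2032 ± 60.2 CPM in control (SD, n = 3 each; edgeR adjusted p 0.266). Col17a1 was at 2737 ± 325 CPM in Eed cKO and 3549 ± 292 CPM in control, and Krt15 at 2373 ± 534 CPM in Eed cKO and 3058 ± 339 CPM in control (SD, n = 3 each). For these 3 genes every Eed cKO library was below every control library, opposite in direction to Epcam. Over all genes tested, the libraries lay apart with Eed cKO lower in 9.22% and with Eed cKO higher in 11.0%. Epcam was at 120, 151 and 148 CPM in Eed cKO libraries 1, 2 and 3, against 64.5, 104 and 77.4 CPM in control libraries 1, 2 and 3. Library 2 was thus the highest of each group, as for Hmga2, and Epcam ranked 6 among the genes closest in pattern to Hmga2 (RMSD 0.142). The part of these cells or of the EpCAM gate in the levels of Lin28b, Hmga2 and Igf2bp1 was not tested.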

How the data were processed

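For each library the authors deposited raw read counts by gene symbol, not normalized. Per the labels' protocols, total RNA was reverse transcribed, amplified and sequenced as 100-base single reads. Per the submitters' processing notes, the tools were HTSeq 0.6.1, TopHat2 2.0.13, DESeq2 1.6.3 and Cufflinks 2.2.1 on mm10, their roles unstated. The sources used here do not state the annotation, the strand setting or the treatment of multiply mapped reads.

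The counts went into edgeR 4.0.16 (R 4.3.3). Its filterByExpr kept 14700 of 24453 symbols, TMM gave the scaling, and genotype alone was tested by quasi-likelihood with Benjamini-Hochberg adjustment over the whole table. The SE is the log2 fold change over the square root of F. Totals of 20998149 to 29998531 counts limit precision for weak genes. Alternatives were other scalings and filters, DESeq2 1.42.0, limma-voom (limma 3.58.1), robust dispersion, a replicate block, leaving out Rn45s and leaving out each library. The test was checked on simulated data that had the same dispersion for every gene. Only genes with more counts than Lin28b were changed there, so the check does not cover genes as weak as Lin28b.

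Coordinates, exon lengths, overlaps and UTRs are from GENCODE M21 (GRCm38, the assembly of mm10), matched by symbol for 23797 of 24453 symbols.

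The 7 genes, Eed, 6 fixed genes (Igf2, H19, Trim71, Dicer1, Myc and Mycn), every called gene of each list or, with under 3 called, those of smallest p, and the 3 nearest patterns of each called gene were named. Members and lists were chosen with earlier results of these data known. Malsu1, Hmga2-ps1 and the marker genes were added for the values beside which they stand. Figures used Python 3.11.15 and matplotlib 3.10.9.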

Additional observations from a re-analysis of the deposited data

How the results depend on the processing

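Under the 9 alternatives that kept all libraries, Lin28b, Hmga2 and Igf2bp1 were called higher each time. Their log2 fold changes were 3.61 to 3.70, 0.94 to 0.97 and 0.93 to 0.95. For Lin28b the call was close to the threshold in limma-voom (adjusted p 0.0491). The highest adjusted p was 0.0286 for Hmga2 (edgeR without Rn45s) and 0.00527 for Igf2bp1 (edgeR and limma-voom). Igf2bp2 and Igf2bp3 were called in none. Leaving out 1 library gave log2 fold changes of 3.49 to 4.05 for Lin28b and 0.80 to 1.21 for Hmga2, both with calls lost, and of -0.054 to 0.53 for Igf2bp2, whose sign turned without control 1. The number of the 7 genes called higher was 1 to 3 in these fits, and 1 without Eed cKO 3 or without control 3. Limits of depth bear on Lin28a and Lin28b, with 12 and 207 counts over all libraries.

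Over all genes, 764 were called higher by DESeq2 and 302 to 456 without 1 library. Lower genes numbered 257 with no filter on low counts, 270 in DESeq2 and 35 to 118 without 1 library. With replicate number as a block 675 were higher and 269 lower, against 499 higher and 120 lower without it. The labels do not say whether the numbers pair samples, so the main fit had no block. Same-numbered libraries had correlations of their deviations from the group means of 0.344, 0.108 and 0.0452 for numbers 1, 2 and 3. Differently numbered libraries had correlations from -0.253 to 0.187. The block changed no call among the 7 genes. For the genes of the microRNA pathway and its regulators DESeq2 called 1 higher and 1 lower. For let-7 targets it called 5 higher, and 1 was lower with no filter and with the block. For other high mobility group genes 1 was lower with no filter or DESeq2 and 2 with the block. For other oncofetal genes 2 were higher with no filter, 3 in DESeq2 or with the block, and 1 to 2 without 1 library. The cause of these differences was not tested.

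With the longest transcript as length, Igf2bp1 made up 18.3% in Eed cKO and 9.92% in control, and Igf2bp3 56.35% and 68.4%. With CPM not divided by length, Igf2bp1 made up 29.2% and Igf2bp2 24.0% in Eed cKO. An alternative added after seeing the data left exons shared with another gene out of the length. In it Igf2bp1 made up 22.9%, Igf2bp2 24.3% and Igf2bp3 52.8% in Eed cKO, with Igf2bp3 at 65.9% in control.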

Other observations

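The 12 rows for let-7 and miR-98 hairpins held 144 counts in all over the 3 Eed cKO libraries and 79 over the 3 control libraries. No row had more than 25 counts in a library, 3 had none, and only Mirlet7g passed the filter on low counts (38 counts in Eed cKO and 18 in control, edgeR adjusted p 0.739). Mature let-7 is shorter than the reads, so these rows do not measure it.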
